A study of Arabidopsis thaliana with 6 samples.

Results

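Pentatricopeptide repeat (PPR) genes encode proteins built from tandem helical repeats that bind RNA. Most PPR proteins are made from nuclear genes and imported into chloroplasts or mitochondria, where they take part in the editing, splicing, cleavage, stabilisation and translation of organelle transcripts. In seedlings such factors are known for their part in building the photosynthetic and respiratory complexes, and PPR genes of Arabidopsis mostly lack introns. The genes described here are a list of 60 loci on chromosome 1, taken as PPR genes from their locus numbers. Of these, 46 had a probe set that the platform annotation pairs with that gene alone, and 14 did not. Every one of the 46 loci had a single such probe set, and all 46 probe sets carry the plain "_at" suffix. The annotation used here gives locus numbers without protein families, so the PPR assignment and the absence of introns were not checked against it.

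RNA of whole Arabidopsis thaliana seedlings, ecotype Col-0, was hybridised to Affymetrix ATH1 arrays, on which each gene is read by a set of short oligonucleotide probes. The mutant group was atsf1-2, a mutant of the pre-mRNA splicing factor AtSF1 in the Col-0 background, and the control group was wild-type Col-0. Each genotype had 3 biological replicates with 1 array each, from untreated seedlings 9 days old, grown on agar at 23 C under a cycle of 16 h light and 8 h dark. The labels do not describe the atsf1-2 lesion, and no probe set is paired with AtSF1 alone here, so that gene gives no check of the genotype labels. Because whole seedlings were used, fewer cells of a type and less RNA per cell cannot be told apart.

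The deposited values are signal intensities on a linear scale. Median signals per array were 165 to 181 in atsf1-2 and 182 to 195 in Col-0 over all 22746 probe sets. Among arrays of the same genotype the log2 signals of tested probe sets correlated least for atsf1-2 replicate 3, with Pearson's r of 0.965 and 0.966, and for Col-0 replicate 2, with 0.975 and 0.977. The other pairs gave 0.984 in atsf1-2 and 0.990 in Col-0. Of 4 root markers, 3 had a probe set of their own, EXPA7, EXPA18 and PYK10, and none passed the test described next. Their summed signals, mostly from PYK10, were 15910 to 16810 in atsf1-2 and 15420 to 17540 in Col-0. Of 7 leaf markers, 2 had a probe set of their own, LHCB4.3 and PSAN. These summed to 12920 to 17370 in atsf1-2 and 13320 to 14100 in Col-0, mostly from PSAN. LHCB4.3 rose by 0.56 ± 0.15 on the log2 scale (SE, limma adjusted p = 0.0487). That call was lost under 11 of 15 alternatives, among them no filter, the replicate block and leaving out any single array, with adjusted p by limma from 0.0216 to 0.142 over all 15. The anther gene AMS gave 14.8 to 27.1 in atsf1-2 and 1.70 to 35.8 in Col-0. It was the only 1 of 3 flower markers with a probe set of its own, and the 3 seed markers had none here.

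Of the 46 genes, 13 were bright enough to be tested, and none of the 13 was called higher or lower in atsf1-2. To be tested, a probe set had to reach the 40th percentile of mean log2 signal, which is a geometric mean of 104 over the 6 arrays. Signals were compared with limma on the log2 scale, and a call is a Benjamini-Hochberg adjusted p under 0.05 over all 13648 probe sets tested. Over all of them 8.19% were called, 3% higher and 5.19% lower, and with 13 genes a count of 0 is not read as a departure from that background. At an unadjusted p under 0.05 the limma test held 1 of the 13 genes, against 26% of all tested probe sets. The adjusted p of the 13 genes ran from 0.172 to 0.961. The mutant and Col-0 signals overlapped for each of the 13 genes, and they did not overlap for 31.3% of all tested probe sets. The 26% and the 31.3% are not matched to the 13 genes in brightness. The counts set beside them are not read as a departure from the background either.

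In the 13 genes the log2 fold changes, 6 above 0 and 7 below, had a median of -0.052, beside a median of -0.070 over all tested probe sets. With every array centred on its own median the first of these became 0.089 and the second 0.071, so the sign of either depends on the scaling. Apart from AT1G18485, the log2 fold changes lay between -0.34 and 0.15. For 12 of the 13 genes the 95% interval of the difference lay within 2-fold in either direction. The lowest end of these intervals was 0.534-fold, for AT1G08610, and the highest was 1.47-fold, for AT1G09820. For 10 of them it lay within 1.5-fold on the deposited scale. Median centring moved all log2 fold changes up alike, for AT1G01970 from 0.15 to 0.29 ± 0.20 (SE). The count within 1.5-fold therefore depends on the scaling. The intervals counted here come from the fit on the deposited scale, are not adjusted for the number of genes, and rest on 3 arrays per genotype. Standard errors of the 13 genes ran from 0.15 to 0.44 on the log2 scale, with a median of 0.19, against a median of 0.17 over all tested probe sets.

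**Figure D1:**
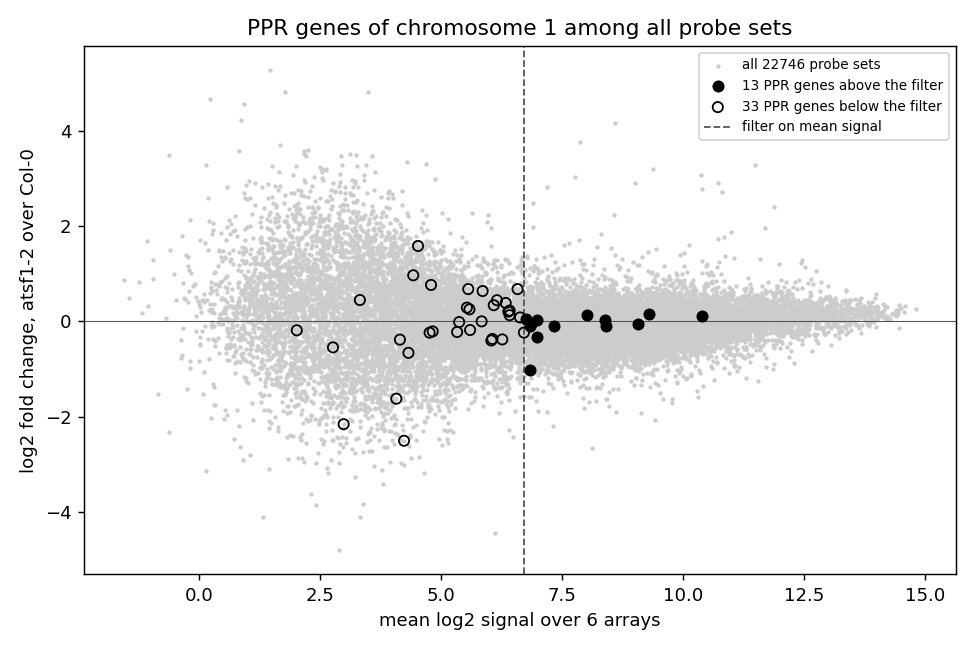
Log2 fold change of atsf1-2 over Col-0 from the limma fit with no filter (vertical axis) against mean log2 signal over the 6 arrays (horizontal axis), for all 22746 probe sets in grey. The 13 tested PPR genes (filled circles) lie near 0 apart from AT1G18485 at -1.02, and the 33 genes below the filter (open circles, left of the dashed line) spread more widely, as dim probe sets do in general.

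The brightest of the 13 was AT1G02150. Its signal was 1520, 1696 and 1056 in atsf1-2, against 1269, 1228 and 1358 in Col-0. The mutant arrays spanned the whole Col-0 range, with replicates 1 and 2 above it and replicate 3 below it. The log2 fold change came to 0.12 ± 0.17 (SE; adjusted p = 0.696 by limma). Leaving out single arrays moved it between -0.019 and 0.32.

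AT1G01970 had signals of 697, 538 and 758 in atsf1-2 and of 519, 561 and 717 in Col-0. Both genotypes held bright and dim arrays, and its log2 fold change of 0.15 ± 0.18 (SE; adjusted p = 0.633 by limma) was the highest of the 13. AT1G26460 gave 583, 450 and 541 in atsf1-2, against 561, 503 and 566 in Col-0. The Col-0 signals lay inside the mutant range, and the log2 fold change was -0.057 ± 0.15 (SE). AT1G09900 gave 397, 304 and 287 in atsf1-2, against 333, 368 and 343 in Col-0. Here too the mutant arrays lay on both sides of the Col-0 arrays, with a log2 fold change of -0.094 ± 0.17 (SE).

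AT1G18900 had signals of 358, 399 and 269 in atsf1-2 and of 378, 296 and 329 in Col-0, an almost equal pair of means. AT1G20300 had 321, 250 and 251 in atsf1-2, against 251, 253 and 235 in Col-0. Of these arrays only atsf1-2 replicate 1 stood above the others, and the log2 fold change of AT1G20300 was 0.14 ± 0.17 (SE, limma adjusted p = 0.624). AT1G11630 gave 166, 171 and 134 in atsf1-2, against 178, 149 and 173 in Col-0. AT1G02370 gave 139, 132 and 114 in atsf1-2, against 122, 136 and 118 in Col-0. For AT1G11630 and AT1G02370 the dimmest mutant array was replicate 3, and the log2 fold changes were -0.090 ± 0.19 and 0.033 ± 0.20 (SE).

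**Figure D2:**
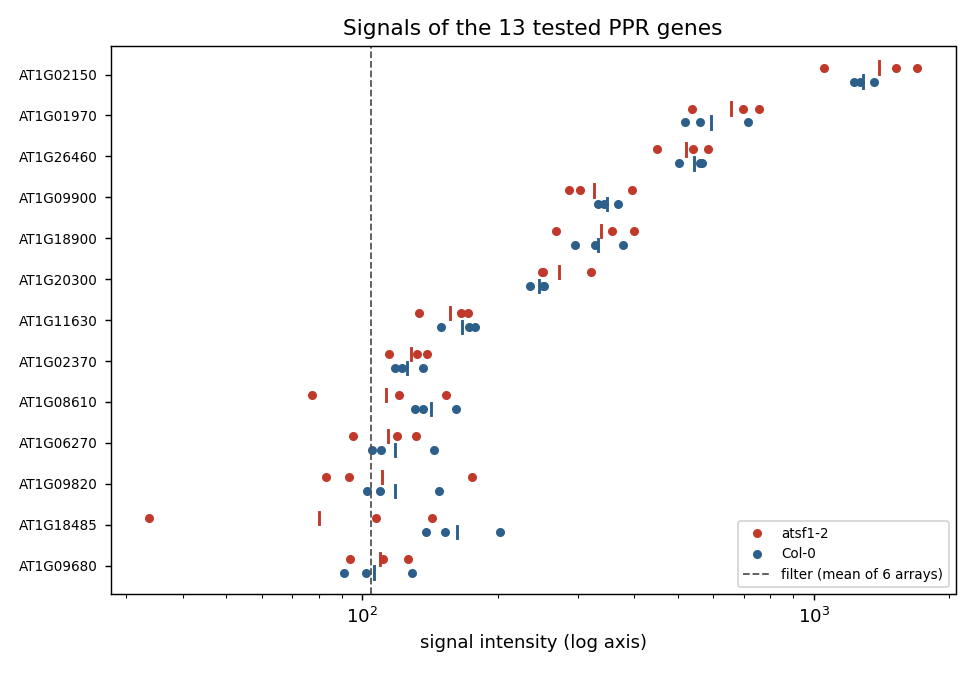
Signal intensity (log axis) of the 13 tested PPR genes on each array, with atsf1-2 in red above Col-0 in blue; points are single arrays, short bars are geometric means of 3 arrays, and the dashed line is the filter on the mean of the 6 arrays. In every gene the red and blue points overlap, and the one point that stands far off is AT1G18485 on atsf1-2 replicate 3, at 33.7.

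The other 5 tested genes lay near the filter, as did AT1G02370 above. AT1G18485 had signals of 143, 107 and 33.7 in atsf1-2, against 153, 202 and 139 in Col-0. The mutant array of replicate 1 fell within the Col-0 range, replicate 2 below it and replicate 3 far below it. The means were 94.6 ± 55.7 in atsf1-2 and 164.6 ± 33.3 in Col-0 (SD, n = 3 each; limma adjusted p = 0.172, unadjusted p = 0.0407). The log2 fold change was -1.02 ± 0.44 (SE), with a 95% interval from -1.98 to -0.051, and over the alternatives the adjusted p ran from 0.102 to 0.502. Without atsf1-2 replicate 3 the log2 fold change came to -0.39 ± 0.23 (SE; adjusted p = 0.315 by limma). Without that array and Col-0 replicate 2 it was -0.23 ± 0.21 (SE, limma adjusted p = 0.502). The size of this difference thus rests on 1 array.

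AT1G08610 gave 121, 77.5 and 153 in atsf1-2, against 136, 161 and 131 in Col-0. Only the arrays of atsf1-2 replicates 1 and 2 lay below all Col-0 arrays, and the log2 fold change came to -0.34 ± 0.26 (SE; adjusted p = 0.446 by limma). AT1G09820 gave 83.3, 93.3 and 175 in atsf1-2, against 110, 148 and 102 in Col-0. Its brightest array was atsf1-2 replicate 3, the array on which AT1G18485 was dimmest. Its log2 fold change was -0.096 ± 0.29 (SE), and between -0.43 and 0.11 with single arrays left out. AT1G06270 gave 119, 95.2 and 131 in atsf1-2, against 144, 105 and 110 in Col-0. AT1G09680, the gene just inside the filter, gave 111, 126 and 93.9 in atsf1-2, against 91.3, 129 and 102 in Col-0. For AT1G06270 and AT1G09680 the genotypes covered nearly the same range, with log2 fold changes of -0.052 ± 0.23 and 0.046 ± 0.23 (SE).

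**Figure D3:**
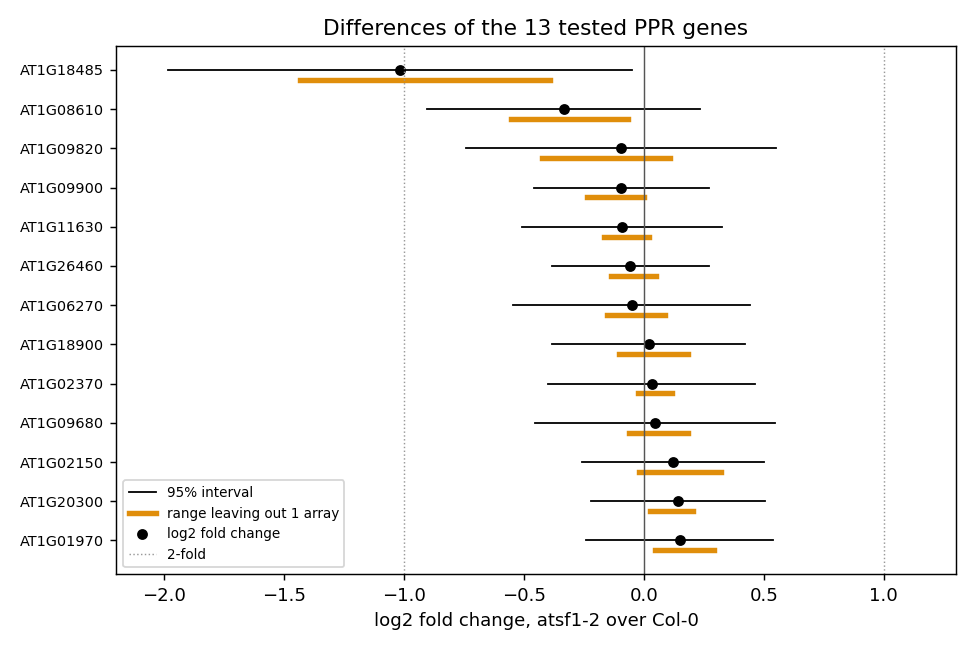
Log2 fold change of atsf1-2 over Col-0 for the 13 tested PPR genes (points), with the 95% interval of the limma fit (black lines) and the range over fits that leave out 1 array (orange bars); dotted lines mark 2-fold. For 12 genes the interval lies within 2-fold and includes 0, and AT1G18485 runs from -1.98 to -0.051, with values from -1.43 to -0.39 when 1 array is left out.

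Of the 46 genes, 33 fell below the filter. The share that passed was 28.3% for these PPR genes, beside 54.4% of 13240 other loci with a probe set of their own. Brightness also depends on the probes of each set, so this compares signals and not transcript levels between genes. Mean log2 signals were 6.71 for AT1G11900, the gene just outside the filter, and 6.75 for AT1G09680, just inside it. On single arrays the signals of the 33 genes ran from 1.52 to 156, and 13 of them had a geometric mean below 32. The median ratio of the brightest to the dimmest array within a genotype was 1.67 in atsf1-2 and 1.99 in Col-0 for these 33 genes, against 1.38 in atsf1-2 and 1.23 in Col-0 for the 13 tested genes. Over all probe sets below the filter it was 2.68 in atsf1-2 and 2.57 in Col-0, and over all tested probe sets 1.32 and 1.22. A fit with no filter, which takes in all 46 genes, called none of them (limma, adjusted p under 0.05), against 3.1% of all 22746 probe sets. At an unadjusted p under 0.05 that fit held 2 of the 46 genes, against 17.7% of all probe sets. The shares over all probe sets are not matched for brightness, since 60% of all probe sets passed the filter, against 28.3% of the 46 genes. The 2 counts are therefore not read as a departure from the background.

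CRR22 (AT1G11290), a chloroplast factor that edits transcripts of the NDH complex and of the plastid RNA polymerase, gave signals of 84.4, 84.8 and 109 in atsf1-2, against 94.9, 61.8 and 83.0 in Col-0. The mutant signals lay in and just above the Col-0 range, and the log2 fold change with no filter was 0.23, with a limma adjusted p of 0.774. OTP90 (AT1G25360), a mitochondrial editing factor, gave 40.8, 71.9 and 71.6 in atsf1-2, against 42.3, 37.8 and 32.2 in Col-0. For OTP90 the mutant arrays of replicates 2 and 3 were above all Col-0 arrays and replicate 1 was not. Its log2 fold change with no filter was 0.68, with a limma adjusted p of 0.449. Several other listed genes with a known role had no probe set in the annotation, alone or shared with other genes, and are not analysed here. Among them are CLB19, OTP82 and ECB2, which edit chloroplast transcripts, MEF3, which edits mitochondrial transcripts, RPF1, which takes part in processing the 5′ end of a mitochondrial transcript, and GRP23, which is needed in embryos.

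AT1G12620 and AT1G12775 belong to a group of PPR genes related to restorers of fertility, which in other plants silence mitochondrial transcripts that cause male sterility. AT1G12620 gave 64.0, 66.5 and 43.5 in atsf1-2, against 56.1, 37.0 and 89.4 in Col-0, so the Col-0 arrays lay on both sides of the mutant ones. AT1G12775 gave 74.8, 59.9 and 83.6 in atsf1-2, against 36.1, 71.1 and 38.8 in Col-0. Here replicate 2 of Col-0 overlapped the mutant arrays and the other Col-0 arrays were dimmer, with a log2 fold change of 0.64 with no filter (limma adjusted p = 0.457).

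In the RefSeq gene order AT1G03510, AT1G03540 and AT1G03560 stand close together, with 2 protein-coding genes between the first pair and 1 between the second. AT1G03510 gave 33.1 to 52.4 in atsf1-2 and 34.0 to 62.0 in Col-0. AT1G03540 gave 2.81, 25.1 and 12.4 in atsf1-2, against 30.0, 50.5 and 16.9 in Col-0. AT1G03560 gave 45.6 to 86.5 in atsf1-2 and 66.7 to 84.1 in Col-0. The genotypes overlapped for all 3 neighbours, whose log2 fold changes with no filter were -0.014, -1.63 and -0.40. AT1G09190 and AT1G09220, with 3 protein-coding genes between them, had log2 fold changes of 1.58 and 0.77 with no filter. The signals of AT1G09190 were 59.4, 48.9 and 21.5 in atsf1-2, against 14.8, 5.30 and 29.7 in Col-0, and neither gene was called (limma adjusted p = 0.295 and 0.515).

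For 4 of the 46 genes, or 8.7%, the signals of the genotypes did not overlap, 2 lower and 2 higher in atsf1-2, beside 23.4% of all 22746 probe sets (14% lower and 9.47% higher). All 4 were among the 33 genes below the filter, and of all probe sets below the filter 11.7% did not overlap. The 23.4% takes in brighter probe sets too, so it is not matched to these genes in brightness. The 4 genes were named after their values were seen. AT1G19290 gave 18.7, 4.46 and 5.83 in atsf1-2, against 56.2, 41.6 and 38.3 in Col-0. All mutant arrays were below all Col-0 arrays, and the fitted log2 fold change with no filter was -2.51 (limma adjusted p = 0.0793, unadjusted p = 0.00415). AT1G13630 gave 3.27, 4.04 and 3.93 in atsf1-2, against 7.95, 21.6 and 27.1 in Col-0. It was also lower on every mutant array, and it was not called with no filter (limma adjusted p = 0.205). No detection calls were used here, so whether the signals of these 4 genes lie above background is not known, and fitted fold changes of genes this dim, AT1G03540 and AT1G09190 included, are not read as sizes. AT1G02060 gave 22.3, 37.4 and 32.1 in atsf1-2, against 16.9, 11.8 and 18.0 in Col-0, and AT1G09220 gave 27.3, 36.6 and 46.8 in atsf1-2, against 26.8, 25.9 and 13.7 in Col-0. For AT1G02060 and AT1G09220 every mutant array was above every Col-0 array, for AT1G09220 by a narrow margin, and the adjusted p values were 0.418 and 0.515.

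**Figure D4:**
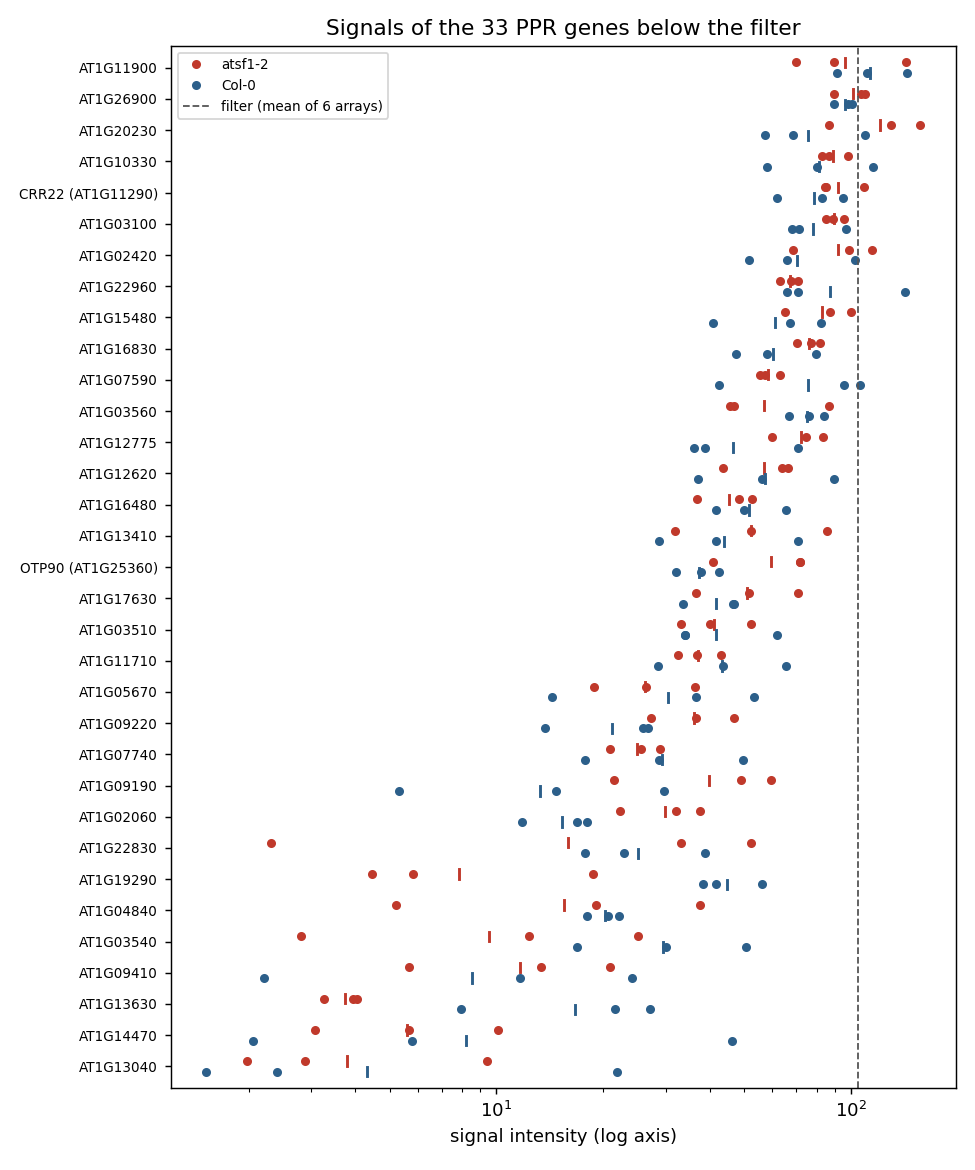
Signal intensity (log axis) on each array of the 33 PPR genes below the filter, ordered by mean signal, with atsf1-2 in red above Col-0 in blue; points are single arrays, short bars are geometric means of 3 arrays, and the dashed line is the filter. The genotypes separate for AT1G19290 and AT1G13630, lower in atsf1-2, and for AT1G02060 and AT1G09220, higher in atsf1-2, all far left of the filter.

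The remaining genes below the filter overlapped between genotypes. AT1G20230 gave 86.5, 130 and 156 in atsf1-2, against 68.4, 110 and 57.1 in Col-0, with mutant replicates 2 and 3 above all Col-0 arrays (limma adjusted p = 0.350 with no filter). CWM1 (AT1G17630) gave 70.6, 36.5 and 51.4 in atsf1-2, against 33.6, 46.7 and 46.4 in Col-0. AT1G22960 gave 63.1, 71.1 and 67.5 in atsf1-2, against 66.0, 142 and 70.9 in Col-0, and AT1G14470 gave 3.07, 10.1 and 5.67 in atsf1-2, against 2.06, 46.3 and 5.77 in Col-0. For AT1G22960 and AT1G14470 only Col-0 replicate 2 stood above the rest. Over the 46 genes that array held the highest of the 6 signals for 14, or 30.4%, near its share of 27.7% over all probe sets. The array of atsf1-2 replicate 3 held the highest signal for 10 and the lowest for 8 of the 46 genes. These are 21.7% and 17.4%, beside 24.7% and 24.1% over all probe sets.

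Other organelle RNA factors were set beside these genes as lists. Among 39 known PPR genes outside the 60 loci, 15 had a probe set of their own and 4 were tested. None of the 4 passed limma's adjusted threshold or an unadjusted p under 0.05, and their median log2 fold change was 0.015. Over all tested probe sets 8.19% passed the adjusted threshold and 26% had an unadjusted p under 0.05. Counts of 0 in this list and those below, each with few tested genes, are not read as a departure from that background. CRR28, a chloroplast editing factor, had a log2 fold change of 0.22 ± 0.26 (SE; adjusted p = 0.626 by limma). CRR21, which edits an NDH transcript, had -0.080 ± 0.16 (SE, limma adjusted p = 0.783). Their 95% intervals ran from -0.34 to 0.78 for CRR28 and from -0.42 to 0.26 for CRR21.

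Of 14 editing cofactors of the MORF and ORRM families and their partners, which act together with PPR proteins, 2 were tested and neither passed limma's threshold, adjusted or unadjusted. MORF5 gave 577, 639 and 358 in atsf1-2, against 391, 369 and 473 in Col-0. Replicates 1 and 2 of the mutant were above all Col-0 arrays and replicate 3 was below them, and the log2 fold change came to 0.32 ± 0.21 (SE; adjusted p = 0.379 by limma). Without atsf1-2 replicate 3 it was 0.57 and passed (limma adjusted p = 0.0472), and without atsf1-2 replicate 2 it was 0.15. MORF5 passed under no other alternative, with adjusted p by limma up to 0.695. ORRM2 had a log2 fold change of 0.19 ± 0.14 (SE; adjusted p = 0.436 by limma).

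Of 14 factors for the splicing of organelle introns, 3 were tested and none passed, with no unadjusted p under 0.05 by limma. Among them nMAT2, a maturase that acts on mitochondrial introns, gave 356, 317 and 375 in atsf1-2, against 239, 253 and 341 in Col-0. The brightest Col-0 array lay inside the mutant range, and the log2 fold change came to 0.35 ± 0.18 (SE; adjusted p = 0.243 by limma). CFM3A, a chloroplast intron factor, had -0.16 ± 0.19 (SE, limma adjusted p = 0.642). Of 9 genes for organelle transcription and 8 for organelle ribonucleases, 1 each had a probe set of its own, and neither reached the filter.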

How the data were processed

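The submitters' processing notes name MAS5 and Affymetrix Expression Console 1.2 as what the authors used to make the deposited linear signal intensities, 1 for each probe set of an array. Each sample supplied 300 ng of total RNA, per the labels. Background settings were not given in the sources used here. The titles gave the genotype of each sample. Of 22810 probe sets, 64 controls were left out. The platform annotation paired 13513 with 1 gene, 503 with several and 8730 with none, and 13436 matched the RefSeq table of assembly TAIR10.1, used for names and gene order. It held no sequences, so protein classes and promoter motifs are not used here.

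Signals were taken to log2, filtered at the 40th percentile of the mean, and compared with limma 3.58.1 in R 4.3.3 (eBayes with a trend, two-sided, Benjamini-Hochberg threshold 0.05), tested on simulated data. The number of arrays limits the precision. The genes and lists were chosen with earlier results of these data known. Genes named are all tested ones, the known factors, up to 2 of each further list with the smallest p, and, after their values were seen, the named dim genes. Alternatives were no filter, the 60th percentile, a pseudocount of 38.3, quantile normalization, median centring, no trend, array weights, the replicate block, leaving out each array, and leaving out both arrays that correlated least.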

Additional observations from a re-analysis of the deposited data

How the results depend on the processing

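None of the 13 tested PPR genes was called under any of the 15 alternatives run, where the 60th percentile filter kept 5 of them. The 33 dim genes were fitted with no filter only, where none was called and the smallest adjusted p was 0.0793, for AT1G19290. Averaging probe sets of a locus was not run, since 0 loci had several. The median log2 fold change of the tested genes was 0.087 after quantile normalization, 0.089 with median centring and 0.039 with array weights, against -0.052, and it ran from -0.053 to 0.021 with single arrays left out. Median centring moved the median of all tested probe sets by 0.14, to 0.071, against -0.070. Over all probe sets 409 were called higher and 709 lower. These counts were 267 and 439 with no filter, 755 and 362 with median centring (32.4% lower, against 63.4%), 449 and 476 with quantile normalization (51.5% lower), and 947 and 1713 with array weights, and 271 were higher by eBayes without trend. Leaving out single arrays gave 130 to 463 higher and 151 to 777 lower. For these moves the cause was not tested.

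Signs turned, with no call, for genes near 0. Quantile normalization and median centring gave 0.087 and 0.089 for AT1G06270, 0.037 and 0.045 for AT1G09820, 0.026 and 0.047 for AT1G09900, 0.045 and 0.051 for AT1G11630, 0.045 and 0.084 for AT1G26460, and 0.056 and 0.061 for CRR21. AT1G09900 was at 0.042 with array weights and 0.040 without both arrays that stand apart. With single arrays left out, log2 fold changes ran from -0.019 to 0.32 for AT1G02150, -0.026 to 0.12 for AT1G02370, -0.15 to 0.090 for AT1G06270, -0.062 to 0.19 for AT1G09680, -0.43 to 0.11 for AT1G09820, -0.17 to 0.021 for AT1G11630, -0.10 to 0.18 for AT1G18900, -0.14 to 0.049 for AT1G26460 and -0.022 to 0.41 for CRR28.

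Same-numbered arrays deviated from their genotype means with correlations of 0.10, -0.19 and -0.21, so the numbers do not show a pairing. For differently numbered arrays the correlations ran from -0.25 to 0.32. The highest was for atsf1-2 replicate 3 and Col-0 replicate 2, the arrays that correlated least within their genotypes. Deviations sum to 0 within a genotype, which constrains these values, and whether arrays of both genotypes shared a batch was not tested. The replicate block gave 171 higher and 263 lower probe sets and called none of the 13 tested PPR genes.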
